A study of Mus musculus with 12 samples.

Results

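The data described here come from 6 of the 12 arrays of a study of glucose and gene expression in cultured mouse vascular smooth muscle cells. They are the samples labelled 4.5 g/l glucose, and replicates 4 to 6 were set against replicates 1 to 3 across 22180 genes. This is variation within one condition. The split was selected on measured values of these same arrays, so every difference between the 2 sets of 3 is given as a description with a standard error and without a test. All samples were primary aortic smooth muscle cells of C57BL/6J mice, an inbred strain. They were used at passage 3 to 4, and the DMEM held 10% FCS (fetal calf serum). The 4.5 g/l medium (25 mM glucose) and the 0.3 g/l medium (1.7 mM) had 6 samples each, and the time in that medium was given as 14 days in the series text and as 1 week in the sample labels. The labels do not say whether replicates were separate cultures or animals, nor that replicates 1 to 3 and 4 to 6 were handled apart, and no scan date was given. Why the sets differ was not tested.

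Smooth muscle cells of the aorta make the contractile and elastic layer of the vessel wall, and in culture they take on a growing, matrix-making state to a varying degree. Their cultures are prepared by digesting or growing out of the aortic wall, which also holds the endothelium that lines it and the fibroblasts that surround it. Endothelial cells are marked by junction and receptor genes such as Cdh5, Pecam1 and Tie1. Interferon-induced genes are a set of antiviral genes switched on together through STAT and IRF factors, in almost any cell.

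The deposited values are log2 RMA values, on which a difference of 1 is a 2-fold difference. The smooth muscle genes were high throughout: smooth muscle actin (Acta2) lay between 13.74 and 13.90 on the 6 arrays, and smooth muscle myosin heavy chain (Myh11) between 10.29 and 10.87. Endothelial genes were also measured, on arrays whose median over all probe sets was 4.99 to 5.02. VE-cadherin (Cdh5) lay between 10.03 and 11.04, and endomucin (Emcn) between 10.99 and 11.56. The mean of 18 macrophage and leukocyte markers was 4.66 to 4.85. Xist read 3.54 to 3.67 and the Y-linked gene Uty 7.53 to 7.90, on these arrays, with overlapping sets for each. One library went against its label and touches what follows. The library labelled 0.3 g/l replicate 4 read 10.85 for Txnip, a glucose-induced arrestin-family gene, whereas the other 5 arrays of 0.3 g/l read 6.90 to 7.35 and the 6 arrays of 4.5 g/l read 10.90 to 11.22. Results at 0.3 g/l are therefore given with and without it.

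The first principal component of the 6 arrays held 40.7% of their variance and separated the sets. Replicates 1, 2 and 3 lay at -12.91, -18.92 and -17.79, and replicates 4, 5 and 6 at 15.67, 16.00 and 17.95. Replicate 1 was the closest of its set to the other side. The second component (16.3%) set replicate 5, at -21.12, apart from replicates 4 and 6, at 8.14 and 11.93. Correlations over all genes were 0.995 to 0.996 within replicates 1 to 3, 0.995 within replicates 4 to 6, and 0.992 to 0.993 between the sets.

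**Figure D1:**
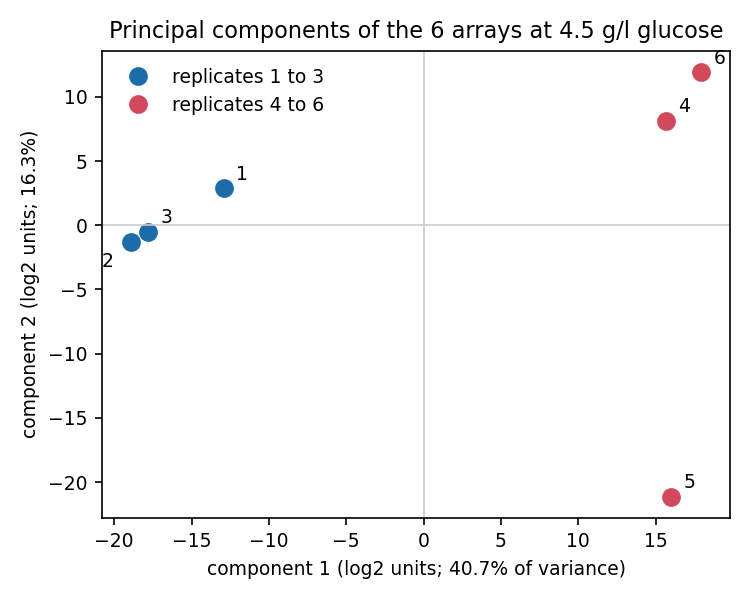
Scores of the 6 arrays at 4.5 g/l glucose on the first (x axis, 40.7% of variance) and second (y axis, 16.3%) principal components of 22180 genes, in log2 units; numbers are replicates. Replicates 1 to 3 lie between -18.92 and -12.91 on the x axis and replicates 4 to 6 between 15.67 and 17.95.

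A gene is called apart here when the set means differed by at least 1.5-fold (0.585 on the log2 scale) and no array of one set overlapped the other. By that rule 443 genes were apart: 146 were higher in replicates 4 to 6 (0.658% of all genes) and 297 were lower (1.34%). Without the fold, 6168 genes (27.8%) had sets that did not overlap, of which 2765 were higher in replicates 4 to 6 (12.5% of all genes) and 3403 lower (15.3%). These shares of all genes are the background for the list counts below. At the edge of the rule, Rps13 lay just inside with a difference of 0.585 and Snord104 just outside at -0.585. Of the higher genes 61, and of the lower genes 92, had a mean under 6 in the higher set and are dim on this array. The median SE of a difference was 0.0965.

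The lower genes with the widest margin were Prnd, Pgf and Igfbp3, each more than 4-fold lower in replicates 4 to 6. Prnd, which encodes the prion-like protein doppel of endothelial cells and testis, read 9.38, 9.34 and 9.50 in replicates 1 to 3 and 7.18, 7.18 and 7.44 in replicates 4 to 6. That is 4.41-fold, or -2.14 ± 0.10 (SE, n = 3 and 3). A second, dim probe set of Prnd did not show it, with set means of 3.72 and 3.76. Placental growth factor (Pgf), a ligand of the VEGF receptor Flt1, read 8.31, 8.29 and 8.26 against 6.35, 6.09 and 6.04 (-2.13 ± 0.10). Igfbp3, which binds insulin-like growth factors, read 8.84, 9.14 and 8.80 against 6.58, 6.96 and 6.99 (-2.08 ± 0.14). For each of these genes the sets were far clear of each other, and the arrays of a set lay close together.

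Pi15, a secreted protease inhibitor, read 8.68, 9.04 and 8.90 against 6.91, 7.11 and 7.02. Gpnmb, a glycoprotein of lysosomes and the cell surface, read 8.64, 8.55 and 8.51 against 6.80, 6.87 and 6.76. Cd93, a receptor of endothelial and myeloid cells, read 9.46, 9.43 and 9.27 against 7.60, 7.71 and 7.62. The differences of these 3 genes were -1.86, -1.75 and -1.75. Tmtc1, an O-mannosyltransferase of the endoplasmic reticulum, differed by -1.76 ± 0.10, and Sprr1a, a cornified-envelope protein also known from stressed muscle, by -1.63 ± 0.10. Kit, the stem cell factor receptor, read 7.50, 7.67 and 7.53 against 6.05, 6.14 and 5.69, and Ndnf, a secreted neuron-derived factor, differed by -1.47 ± 0.10.

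**Figure D2:**
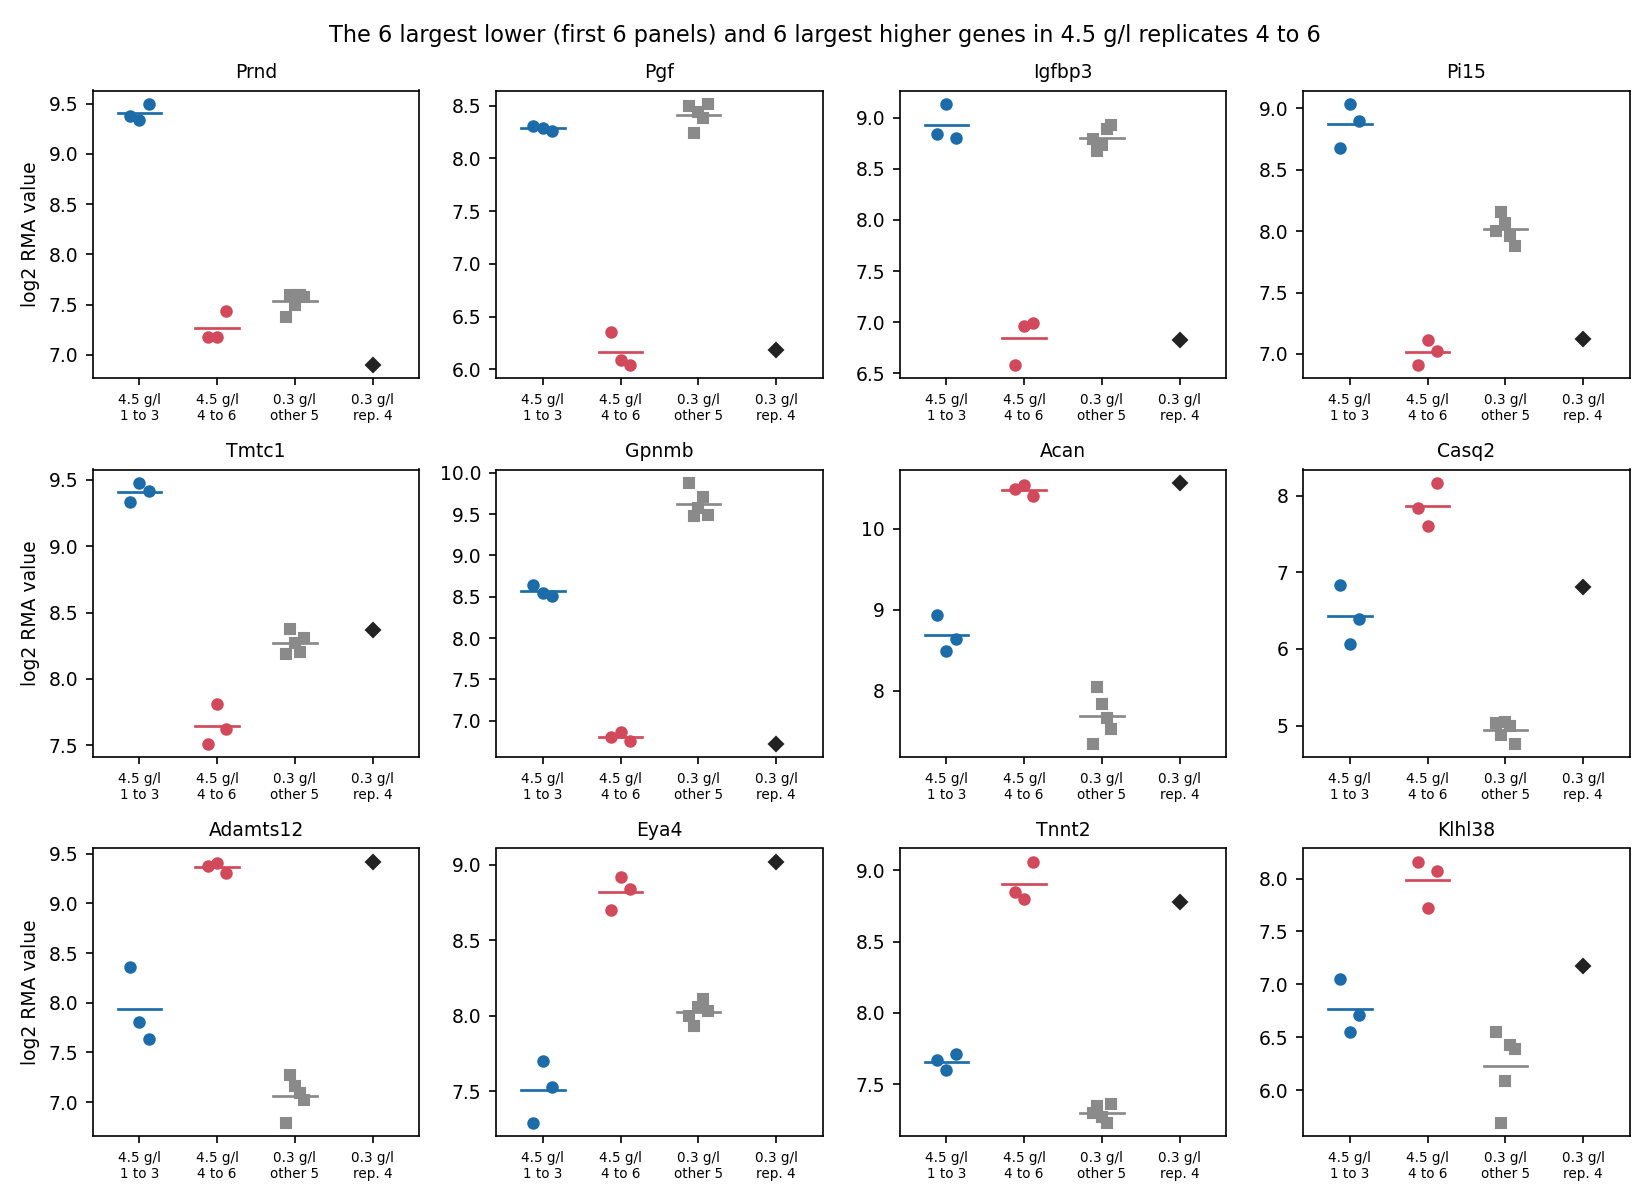
Log2 RMA values (y axis) of 12 genes on every array: the 6 largest lower genes come first (Prnd to Gpnmb), then the 6 largest higher genes (Acan to Klhl38). Circles are 4.5 g/l replicates 1 to 3 and 4 to 6, squares the other 5 arrays of 0.3 g/l, the diamond 0.3 g/l replicate 4, and lines group means. In each panel the 2 sets at 4.5 g/l are clear of each other, while the 0.3 g/l arrays lie near one set, near the other, between them or outside both.

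Endothelial markers were lower in replicates 4 to 6 as a group. Of 23 measured, 13 were apart and lower and none was apart and higher, against 1.34% and 0.658% of all genes. The sets did not overlap for 22, all lower, beside 15.3% of all genes, and Ushbp1 was the exception. The median difference was -0.63, beside -0.02 over all genes, and the mean of the list was 7.46, 7.53 and 7.49 in replicates 1 to 3 and 6.80, 6.83 and 6.85 in replicates 4 to 6. Fewer endothelial cells and less of these RNAs per cell cannot be told apart in bulk samples, here or for any other cell type named below.

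Among junction genes, Cdh5 read 10.87, 11.04 and 11.00 against 10.05, 10.06 and 10.03 (-0.93 ± 0.07), and Pecam1 read 9.80, 9.94 and 9.89 against 9.09, 9.08 and 9.16 (-0.77 ± 0.07). Esam, another junction protein, differed by -0.87. Arrays of one set lay close together for each of these. Among receptors, the angiopoietin-system receptor Tie1 read 7.52, 7.55 and 7.59 against 6.52, 6.14 and 6.46 (-1.18 ± 0.11), while Tek and the VEGF receptors Kdr and Flt1 differed by -0.53, -0.30 and -0.51 and were not apart. Nos3, the endothelial nitric oxide synthase, read 6.74, 6.88 and 7.03 against 5.71, 5.67 and 6.00 (-1.09 ± 0.12). The transcription factors Erg and Sox17, which keep endothelial identity, differed by -0.89 and -0.75. Emcn differed by -0.53 ± 0.06, with 11.51 to 11.56 against 10.99 to 11.05, and was not apart by the fold. S1pr1, the sphingosine-1-phosphate receptor of endothelium and lymphocytes, belongs to another list and read 7.78, 7.69 and 7.77 against 6.18, 6.31 and 6.54 (-1.40 ± 0.10).

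Of the Notch pathway, a ligand and a target were lower. Dll4, an arterial Notch ligand, read 6.73, 6.39 and 6.03 against 4.65, 5.19 and 4.86 (-1.48 ± 0.20), and Hey2, an arterial target of Notch, read 10.02, 10.37 and 10.35 against 9.43, 9.59 and 9.56 (-0.72 ± 0.11). These were the 2 of 14 measured Notch genes that were apart, beside 1.34% of all genes apart and lower. The list's median difference was -0.27. The receptors Notch3 and Notch4 differed by -0.41 and -0.48 without overlap, whereas Notch2 (0.03), Jag1 (-0.13) and Hes1 (0.13) had overlapping sets. Lfng, which modifies Notch receptors, was the exception in direction, at 0.21 without overlap.

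Several adhesion molecules for leukocytes were lower. Of 26 chemokine and adhesion genes, 5 were apart and lower and 1 was apart and higher, beside 1.34% and 0.658% of all genes. Vcam1 read 10.17, 10.45 and 10.27 against 9.05, 9.22 and 9.21 (-1.13 ± 0.10), Icam1 differed by -0.95 ± 0.10 and E-selectin (Sele) by -0.83 ± 0.12. The chemokines Ccl2 and Cxcl16 differed by -0.67 and -0.66. Ptgs2, the inducible cyclooxygenase, was the higher one, with 9.57, 9.22 and 9.38 against 10.21, 10.21 and 10.25 (0.84 ± 0.10). Cxcl12 and Csf1 were high and differed by -0.09 and -0.02.

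Growth factors and their binding proteins lay on both sides, more often lower. Of 36, 5 were apart and lower and 2 apart and higher, beside 1.34% and 0.658% of all genes. Without overlap 18 were lower and 6 higher, beside 15.3% and 12.5%, and the median difference was -0.19. Besides Igfbp3, the apart and lower ones were Gas6 (-0.98 ± 0.08), the ligand of the Axl receptors, Pdgfb (-0.83 ± 0.08), Angpt2 (-0.69) and the matricellular Ccn3 (-0.64). Fgf7, a growth factor of mesenchyme for epithelium, read 6.05, 5.82 and 6.08 against 6.77, 7.08 and 7.14 (1.01 ± 0.12). Igfbp4 differed by 0.82, opposite to Igfbp3. The PDGF receptors Pdgfra and Pdgfrb had overlapping sets.

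Interferon-induced genes were the other list with many members lower in replicates 4 to 6. Of 32 measured, 12 were apart and lower and none was apart and higher, beside 1.34% and 0.658% of all genes. The sets did not overlap for 23, all lower, beside 15.3% of all genes. The median difference was -0.39, and the mean of the list was 6.12 to 6.22 in replicates 1 to 3 and 5.59 to 5.66 in replicates 4 to 6. Usp18, which removes ISG15 from proteins and dampens interferon signalling, read 6.73, 6.76 and 6.89 against 5.20, 5.03 and 5.39 (-1.59 ± 0.11). Bst2 (tetherin), which holds budding virus to the cell, read 9.35, 9.57 and 9.31 against 7.94, 7.87 and 8.24 (-1.39 ± 0.12). Iigp1, an immunity-related GTPase, read 4.93, 4.78 and 4.84 against 3.58, 3.39 and 3.63, which is dim. Ifit1, which binds viral RNA, read 6.00, 6.73 and 6.90 against 5.44, 5.24 and 5.38 (-1.19 ± 0.22). Its replicate 1 was the nearest to the other set.

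The remaining apart members were Rtp4 (-1.10), Gbp3 (-0.97), Oasl2 (-0.92), Isg15 (-0.86), Igtp (-0.78), Parp14 (-0.74), Xaf1 (-0.71) and Gbp7 (-0.64). The factors Stat2, Irf7 and Irf9 differed by -0.34, -0.40 and -0.57, without overlap but within 1.5-fold. Ifit3 (-0.04), Herc6 (-0.03) and Mx1 (0.17) had overlapping sets, and Mx1 was dim at 2.73 to 3.33. Several of these genes have close paralogs, among which a probe set may not discriminate.

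Promoter sequence was looked at for this list because its members are induced together through the interferon-stimulated response element. Promoters (RefSeq, build GRCm38.p6, 250 bases before to 50 after each gene's start) were searched on both strands for GAAA followed, after any 2 bases, by a second GAAA, with overlapping matches joined. The motif was in 1131 of 32851 promoters (3.44%), in 13 of the 23 list members with a promoter in the table, and in 6 of the 8 apart members with one. The 3 windows below are those of an antiviral RNA-binding protein, a ubiquitin-like modifier and tetherin, read 5′ to 3′ on the gene's strand. Capitals mark the motif, which reads TTTC, any 2 bases and TTTC where it lies on the opposite strand.
Ifit1, chr19:34640765-34640833, plus strand: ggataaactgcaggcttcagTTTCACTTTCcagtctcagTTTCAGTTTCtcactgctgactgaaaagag
Isg15, chr4:156200855-156200916, minus strand: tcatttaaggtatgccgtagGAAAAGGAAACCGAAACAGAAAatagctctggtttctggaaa
Bst2, chr8:71537567-71537622, minus strand: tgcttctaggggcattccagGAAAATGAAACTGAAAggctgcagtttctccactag
A match describes these letters and is not a measured binding site. The last match begins 85, 66 and 124 bases before the annotated start of Ifit1, Isg15 and Bst2. Gbp3, Gbp7 and Igtp also hold a match.

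Complement and antigen presentation genes, many of which respond to interferon, were also mostly lower. Of 9 complement genes 4 were apart and lower, beside 1.34% of all genes, and 8 were lower without overlap, beside 15.3%. C4b read 6.26, 6.83 and 6.61 against 5.20, 5.67 and 5.15 (-1.23 ± 0.19), and the C1 inhibitor Serping1 read 5.92, 6.32 and 6.21 against 5.05, 5.16 and 5.30 (-0.98 ± 0.12). The protease C1s1 (-0.72) was dim, and the complement decay factor Cd55 differed by -0.64. The other 5 differed by -0.27 to -0.09. Of 14 antigen presentation genes 9 were lower and none higher without overlap, and 2 were apart and lower. These 2 were H2-K1 (-0.86 ± 0.10), a class I molecule with close relatives, and the immunoproteasome subunit Psmb8 (-0.62 ± 0.16), which was dim. Beta-2 microglobulin (B2m), at 12.76 to 13.01, differed by -0.18.

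**Figure D3:**
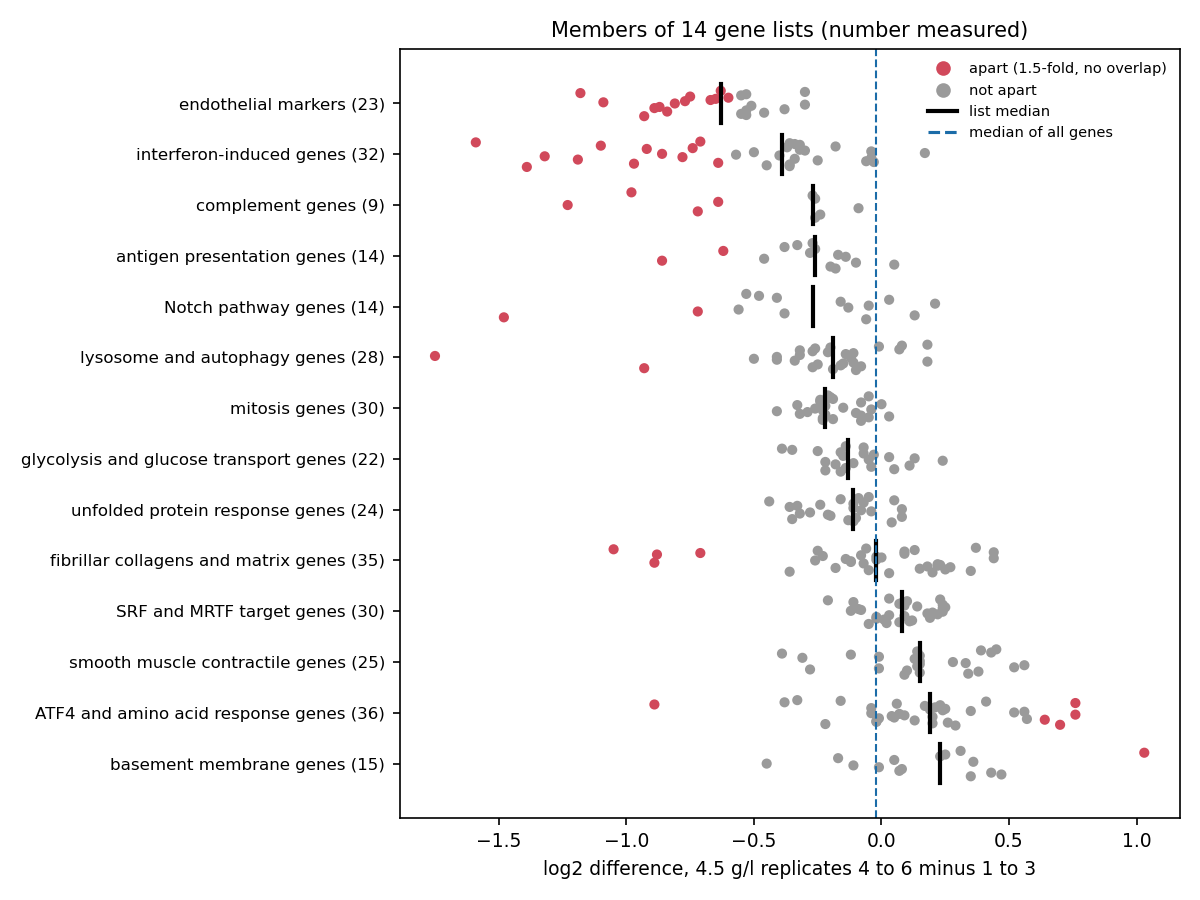
Log2 difference of every measured member (x axis, 4.5 g/l replicates 4 to 6 minus 1 to 3) of 14 gene lists (y axis, number measured in brackets). Red points are apart, black bars are list medians and the dashed line is the median of all genes, -0.02; the endothelial list has its median at -0.63 and the interferon list at -0.39.

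Matrix genes lay on both sides, and their apart counts stand beside 1.34% of all genes lower and 0.658% higher. Of 35 fibrillar collagen and matrix genes 4 were apart, all lower: the matricellular Thbs2 read 9.60, 9.84 and 9.67 against 8.55, 8.76 and 8.66 (-1.05 ± 0.09), and the small leucine-rich proteoglycans Ogn, Dcn and Lum differed by -0.71, -0.89 and -0.88. Dcn and Lum are also fibroblast markers, and were dim. They were the 2 of 15 fibroblast markers that were apart, while Pdgfra differed by 0.28 with overlap. Without overlap 8 fibroblast markers were lower and 1 was higher, and the median difference of the 15 was -0.16. The matrix list as a whole had 13 members higher and 10 lower without overlap, beside 12.5% and 15.3% of all genes. Its median difference was -0.02. In the basement membrane list Nid2, which links laminin to collagen IV, read 7.95, 7.59 and 7.68 against 8.85, 8.75 and 8.72 (1.03 ± 0.11). It was the 1 of 15 that was apart. Col4a1 and Col4a2 differed by 0.47 and 0.43 without overlap, and the list median was 0.23.

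The protease Adamts12 and the inhibitor Timp3 went opposite ways. Adamts12 read 8.36, 7.81 and 7.63 against 9.38, 9.41 and 9.30 (1.43 ± 0.18), while Timp3 read 11.75, 11.81 and 11.90 against 11.09, 11.27 and 11.17 (-0.64 ± 0.08). Adamts9 (-0.81), tissue plasminogen activator (Plat, -0.60) and Mmp19 (-0.59) were the other members apart and lower. Of 22 proteases and inhibitors 4 were apart and lower and 1 apart and higher, beside 1.34% and 0.658% of all genes.

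The higher gene with the widest margin was Acan. Aggrecan (Acan), the large proteoglycan of cartilage that is also made in the aorta, read 8.93, 8.49 and 8.64 against 10.49, 10.54 and 10.41, which is 3.47-fold (1.79 ± 0.12). Col2a1, the cartilage collagen chain, read 9.10, 8.92 and 8.93 against 10.02, 10.21 and 9.88 (1.05 ± 0.10). They were the 2 apart among 19 calcification and osteochondrogenic genes, beside 0.658% of all genes apart and higher. Without overlap 4 of the 19 were higher and 5 lower, beside 12.5% and 15.3% of all genes. The cartilage factor Sox9 differed by 0.37 without overlap, Alpl by -0.15 with overlap, and matrix Gla protein (Mgp), an inhibitor of calcification, by -0.41 without overlap. The list's members thus lay on both sides, with a median of -0.15.

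Casq2, the calcium buffer of the cardiac sarcoplasmic reticulum, read 6.83, 6.07 and 6.39 against 7.84, 7.60 and 8.17 (1.44 ± 0.21). Tnnt2, cardiac troponin T, read 7.67, 7.60 and 7.71 against 8.85, 8.80 and 9.06 (1.24 ± 0.09). It was the 1 apart of 13 cardiac and skeletal muscle markers, beside 0.658% of all genes apart and higher. Without overlap 1 of the 13 was higher and 2 lower, beside 12.5% and 15.3% of all genes. Aoc3, a vascular amine oxidase typical of smooth muscle, read 7.82, 7.92 and 7.75 against 8.96, 9.07 and 8.97 (1.17 ± 0.08). Eya4, a phosphatase and transcriptional coactivator, read 7.29, 7.70 and 7.53 against 8.70, 8.92 and 8.84 (1.32 ± 0.12). Serpinf1, which encodes the antiangiogenic protein PEDF, read 6.61, 6.73 and 7.02 against 7.95, 7.90 and 7.96 (1.15 ± 0.11). Klhl38 differed by 1.22 ± 0.16, but its second probe set differed by -0.12. Alkal1, a ligand of the ALK receptors, differed by 0.95 ± 0.17.

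Of 25 smooth muscle contractile genes none was apart. The sets did not overlap for 14 that were higher and 2 that were lower, beside 12.5% and 15.3% of all genes, and the median difference was 0.15. Calponin (Cnn1) read 12.63, 12.54 and 12.58 against 12.95, 13.01 and 12.93, and tropomyosin Tpm2 read 10.62, 10.50 and 10.61 against 10.96, 11.02 and 11.10. Itga8, the integrin chain of smooth muscle, differed by 0.52 and the Z-disc protein Ldb3 by 0.56. Acta2 differed by 0.09 ± 0.06, and Myh11 by 0.33 ± 0.11 with overlap. Desmin (Des) and synemin (Synm) were the lower ones, at -0.28 and -0.39. Mrtfa, the actin-sensing coactivator of SRF, read 7.85, 7.93 and 7.96 against 8.33, 8.42 and 8.39 (0.46 ± 0.07). Among 30 SRF and MRTF target genes 13 were higher and 2 lower without overlap, none was apart, and the median was 0.08.

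Genes for microRNAs were seen among the higher genes after the values were known. Of 478 tested, 32 were apart and higher and 1, Mir3070a, was apart and lower. That is 6.69% higher, beside 0.658% of all genes. The count of higher ones was 27 with quantile normalization of the arrays, 30 with median centring and 32 with cyclic loess. Most were dim: 8 of the 33 reached a mean of 6 in their higher set. The lower quartile of all probe sets also moved with the sets, from 3.70 to 3.75 on replicates 1 to 3 to between 3.77 and 3.78 on replicates 4 to 6. Its part in these differences was not tested. The files do not say whether such probe sets read the mature form or its precursor, and several of these genes belong to families of near-identical copies.

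The 2 brightest were Mir143 and Mir145a, neighbours in 1 transcript typical of smooth muscle. Mir143 read 7.83, 7.11 and 7.41 against 8.46, 8.80 and 8.68, which is 2.29-fold, and Mir145a read 8.02, 7.58 and 7.88 against 9.21, 8.88 and 8.95 (1.19 ± 0.14). Carmn, the long noncoding RNA of the same locus, read 9.36, 8.98 and 9.15 against 9.76, 9.85 and 9.89 (0.67 ± 0.11). Mirlet7c-2 read 6.06, 5.65 and 5.84 against 6.40, 7.18 and 6.60, and Mirlet7b, which was dim, read 4.59, 4.36 and 3.77 against 5.03, 5.45 and 5.29. The mature forms of the last pair (RefSeq, build GRCm38.p6, chromosome 15) are shown because they share a seed, bases 2 to 8, in capitals, and so share predicted targets. Mir140, known from cartilage, differed by 0.86 and is shown beside them with another seed; its probe set means were 5.07 and 5.93.
let-7b-5p: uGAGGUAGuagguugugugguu
let-7c-5p: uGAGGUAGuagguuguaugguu
miR-140-3p: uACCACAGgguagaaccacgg
Of the 33 microRNA genes apart, 22 had a mature sequence in the table used.

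Of 36 genes of ATF4 and the amino acid response, which are induced when amino acids or cystine run short, 4 were apart and higher, 1 was apart and lower, and 18 were higher and 3 lower without overlap (12.5% and 15.3% of all genes). Of all genes 0.658% were apart and higher and 1.34% apart and lower. The list's median difference was 0.19. Asparagine synthetase (Asns) read 9.83, 9.87 and 9.97 against 10.64, 10.52 and 10.61 (0.70 ± 0.08). The mitochondrial folate enzyme Mthfd2 read 8.97, 8.91 and 9.00 against 9.67, 9.74 and 9.74 (0.76 ± 0.07), and the leucine transporter Slc7a5 read 9.45, 9.53 and 9.66 against 10.40, 10.46 and 10.06 (0.76 ± 0.12). Chac1, which degrades glutathione, differed by 0.64, and the serine synthesis genes Psat1 and Phgdh by 0.56 and 0.52 without overlap. Slc7a11, the cystine transporter, went the other way, with 7.25, 7.86 and 7.86 against 6.59, 6.97 and 6.75 (-0.89 ± 0.18). Ddit3 (CHOP) had overlapping sets, at 7.93 to 8.58 and 8.05 to 8.22.

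The CARE motif that ATF4 partners bind was searched in the same way as TGATGNAA, where N is any base. It was in 1304 of 32851 promoters (3.97%), in 10 of the 30 list members with a promoter in the table, and in 3 of the 4 apart members with one. Asns, which was higher, and Slc7a11, which was lower, are shown because both carry it although they lay on opposite sides.
Asns, chr6:7693210-7693252, minus strand: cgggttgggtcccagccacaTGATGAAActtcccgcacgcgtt
Slc7a11, chr3:50443633-50443699, minus strand: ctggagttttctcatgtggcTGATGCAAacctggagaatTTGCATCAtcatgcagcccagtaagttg
The third is Chac1. Slc7a11 is also a target of NRF2, the oxidative stress factor. With the glutathione transferase Gsta4 (-0.95 ± 0.17) it made up the 2 of 19 NRF2 targets that were apart, both lower, beside 1.34% of all genes. Without overlap 8 of the 19 were lower and 1 higher, beside 15.3% and 12.5% of all genes, and their median difference was -0.14.

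The unfolded protein response showed no member apart among 24. Its list had 14 members lower and none higher without overlap, beside 15.3% and 12.5% of all genes, with a median difference of -0.11. The chaperone Hspa5 (BiP) read 9.74, 9.95 and 10.09 against 9.56, 9.64 and 9.47 (-0.36 ± 0.11), and Sdf2l1 differed by -0.44. Lysosome and autophagy genes had 19 of 28 lower and 2 higher without overlap. Apart and lower, beside 1.34% of all genes, were Gpnmb and Atp6v0d2, a subunit of the proton pump that was dim. The cathepsins Ctsd and Ctsz differed by -0.25 and -0.34.

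The sets had the same glucose label, and genes that respond to glucose were looked at for that reason. None of 12 MondoA and ChREBP genes and none of 22 glycolysis and glucose transport genes was apart. Those 12 are targets together with the factors' own genes, Mlxip, Mlxipl and Mlx. Txnip read 10.90, 10.99 and 10.91 against 11.18, 11.14 and 11.22 (0.25 ± 0.07), and the glucose transporter Slc2a1 read 10.38, 10.40 and 10.44 against 10.10, 10.10 and 9.97 (-0.35 ± 0.07). Arrdc4, the other arrestin gene among the MondoA and ChREBP genes, differed by -0.09 with overlap. Of the 22 glycolysis and glucose transport genes 11 were lower and 2 higher without overlap, beside 15.3% and 12.5% of all genes. The median difference of that list was -0.13, and Gapdh differed by 0.05.

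Among dividing-cell genes none was apart. Of 30 mitosis genes 21 were lower and none higher without overlap, beside 15.3% and 12.5% of all genes, with a median difference of -0.22. The kinetochore gene Cenpf differed by -0.41 and the anaphase activator Cdc20 by -0.32. Mki67 read 9.90, 9.92 and 10.01 against 9.99, 9.93 and 9.90, with a difference of 0.00. Of 31 DNA replication genes 8 were higher and 3 lower without overlap.

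Single members stood apart in further lists. The Wnt antagonist Sfrp4 read 7.36, 7.63 and 7.54 against 6.37, 6.54 and 6.37 (-1.08 ± 0.09), while the ligand Wnt16 and the antagonist Wif1 were higher by 0.76 and 0.69. The BMP antagonist Grem1 and the ligand Bmp2 differed by -0.80 and -0.61, and Bmp2 was dim. Of 32 ion channel subunit genes 3 were apart, all lower, beside 1.34% of all genes. They were the cation channel Trpc6 (-1.11 ± 0.09), the mechanosensitive Piezo2 (-0.91 ± 0.09) and the potassium channel Kcnj2, which was dim (-0.90 ± 0.16). The fatty acid binding protein Fabp4 differed by -0.99 ± 0.15, the clock-linked repressor Bhlhe40 by -0.59, the sterol enzyme Cyp51 by 0.62, Hoxa3 by 0.68 and the linker histone H1f5 by 0.67. Of these H1f5 was dim. Of the 46 lists, 21 with 407 members had no member apart. They include 28 cytosolic ribosomal protein genes (Rps13 and Rpl17, which were apart by a margin close to the rule, are not among them), the respiratory chain, heat shock, hypoxia, immediate early genes, p53 targets, tRNA synthetases, pericyte markers and macrophage markers. Smaller differences were present in some of these lists. Without overlap 13 of the 28 ribosomal protein genes were higher and 1 lower, beside 12.5% and 15.3% of all genes. Of 18 tRNA synthetases 9 were higher and 3 lower. Of 20 p53 targets and cell cycle inhibitors 7 were lower and 0 higher, and of 18 macrophage and leukocyte markers 7 were lower and 1 higher. The Y-linked Kdm5d and Eif2s3y were higher by 0.30 and 0.29 without overlap.

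**Figure D4:**
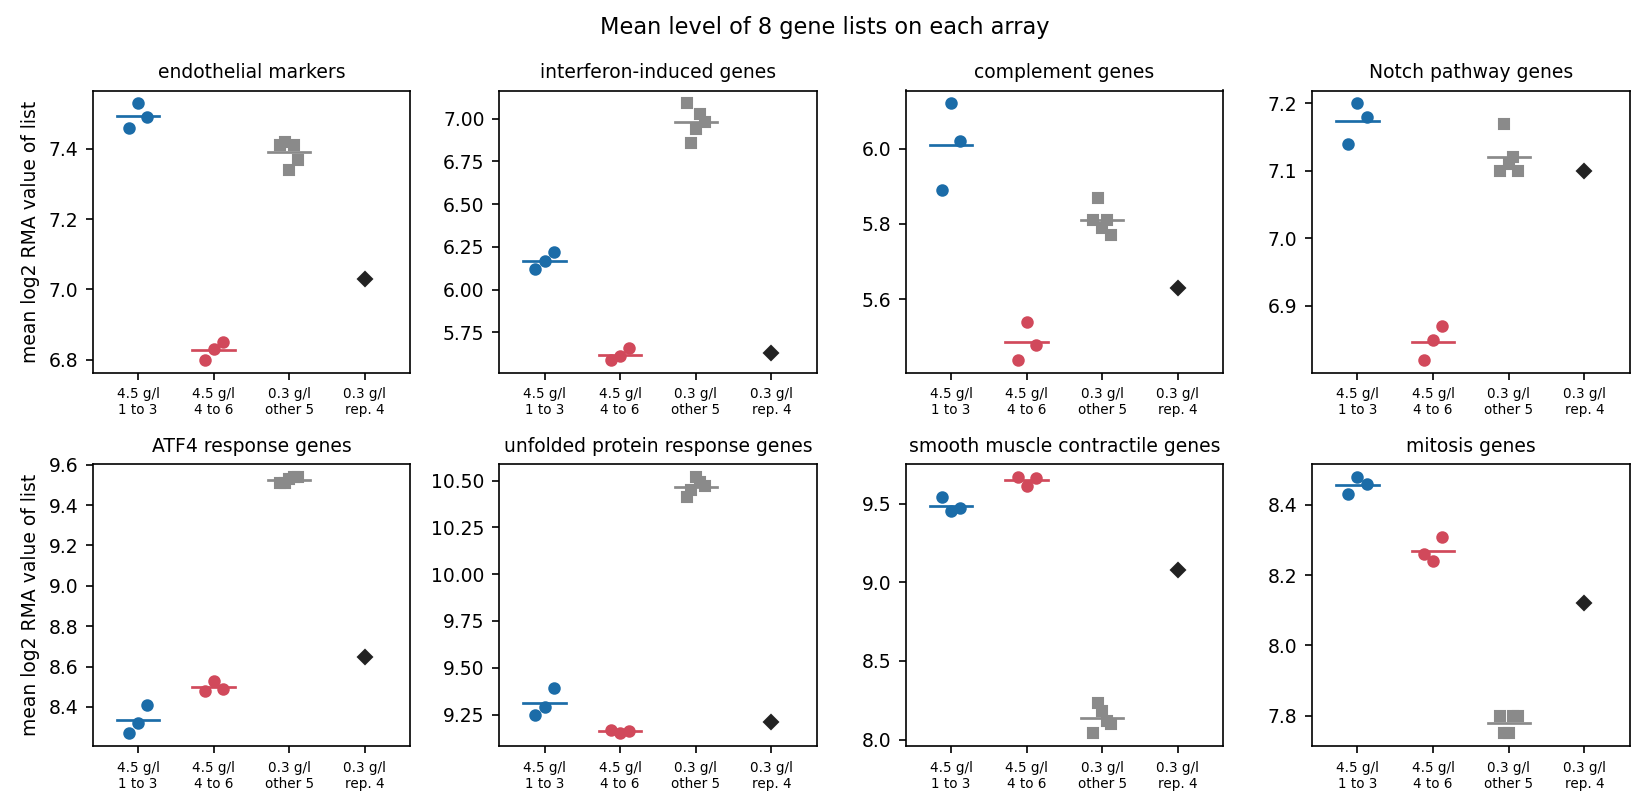
Mean log2 RMA value (y axis) of 8 gene lists on every array. Circles are 4.5 g/l replicates 1 to 3 and 4 to 6, squares the other 5 arrays of 0.3 g/l, the diamond 0.3 g/l replicate 4, and lines group means; the endothelial mean is 6.80 to 6.85 in replicates 4 to 6 and at least 7.03 on all other arrays, while the interferon mean is 5.63 on 0.3 g/l replicate 4.

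The arrays at 0.3 g/l show which set lay closer to them for each gene. Against the 5 arrays of 0.3 g/l without replicate 4, 98 of the 297 lower genes overlapped replicates 1 to 3 alone, 38 overlapped replicates 4 to 6 alone, 29 both and 132 neither. Of the 146 higher genes 45 overlapped replicates 1 to 3 alone, 7 overlapped replicates 4 to 6 alone, 34 both and 60 neither. These overlaps were counted for the apart genes only, so whether they differ from those of genes in general is not known. Pgf is of the first kind, with 8.24 to 8.52 at 0.3 g/l beside 8.26 to 8.31 in replicates 1 to 3. Prnd overlapped replicates 4 to 6, with 7.38 to 7.60 at 0.3 g/l. The endothelial list mean was 7.34 to 7.42 on those 5 arrays, below replicates 1 to 3 and above replicates 4 to 6, and the interferon list mean was 6.86 to 7.09, above both sets.

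Some of the 443 apart genes had their sets on opposite sides of all 5 arrays, so that the direction of a glucose difference turns with the set used. Of the 297 lower genes, 39 were above 0.3 g/l in replicates 1 to 3 and below it in replicates 4 to 6. Of the 146 higher genes, 6 were the reverse. Genes that were not apart were not searched for this. Tmtc1 read 9.33 to 9.48 in replicates 1 to 3, 8.19 to 8.38 at 0.3 g/l and 7.51 to 7.81 in replicates 4 to 6. Gas6 read 10.56 to 10.71, 9.86 to 9.95 and 9.57 to 9.70 in the same order. Ace, the angiotensin-converting enzyme, Cd93, Kit, Erg and Thbs2 were others. Those 6 were Eya4, Serpinf1, Igfbp4, Flrt3, Zdhhc2 and Ak5. These genes were named after their values were seen, and the comparison with 0.3 g/l was not tested.

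The same division by replicate number was tested in the 6 arrays of 0.3 g/l, which the choice of the split had not used. With limma and Benjamini-Hochberg adjustment over 22180 genes, no gene passed 0.05 (0 genes, 0%), and the smallest adjusted p was 0.993. An unadjusted p under 0.05 was found for 645 genes (2.91%), of which 27 were among the 443. Without replicate 4 the limma test again gave 0 genes, with 1169 under an unadjusted 0.05 and a smallest adjusted p of 0.548. With all 6 arrays the spread was wider at 0.3 g/l, with a median SE of 0.13 beside 0.0965 at 4.5 g/l. Without replicate 4 the median SE was 0.109, from fewer arrays, which by itself raises an SE.

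By the rule used at 4.5 g/l, 62 genes (0.28%) were apart at 0.3 g/l, and 12 of them were also apart at 4.5 g/l. With replicates 5 and 6 against 1 to 3, 103 genes (0.464%) were apart, of which 8 were among the 443. The 297 lower genes had a median difference of -0.21 at 0.3 g/l, which was -0.01 without replicate 4, beside -0.01 over all genes. For the 146 higher genes it was 0.28, and 0.08 without replicate 4. The endothelial list had a median difference of -0.08 and the interferon list one of -0.34 at 0.3 g/l, and without replicate 4 these were -0.01 and 0.07. Each of these medians was within 0.1 of the median of all genes once replicate 4 was left out.

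That array was therefore set beside the other 5. On it 1002 genes (4.52%) lay below all other arrays of 0.3 g/l and at least 1.5-fold under their mean, and 821 (3.7%) lay above likewise. Of the 297 genes lower in 4.5 g/l replicates 4 to 6, 136 (45.8%) were among those 1002, of which they made up 13.6%. Of the 146 higher genes 61 (41.8%) were among the 821, of which they made up 7.4%. The opposite combination was found for 6 lower genes and 4 higher genes. Over all genes the 2 differences had a Pearson correlation of 0.26 and a Spearman correlation of 0.12, across genes that are not independent, with no array in common. With the difference of 0.3 g/l replicates 5 and 6 minus 1 to 3 in place of replicate 4, these were 0.11 and 0.13. By rank the likeness was thus no greater for replicate 4. The array of replicate 4 correlated with both sets at 4.5 g/l alike, at 0.991 to 0.992, and with the other 5 arrays of its label at 0.984 to 0.987.

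Single genes on this array lay at the level of a set, between the sets or outside both. Pgf read 6.18 there and 6.04 to 6.35 in 4.5 g/l replicates 4 to 6; Acan read 10.57 there and 10.41 to 10.54. Usp18 read 5.43 beside 5.03 to 5.39, and Ifit1 read 5.35, within 5.24 to 5.44. Asns read 10.69, just above the 10.52 to 10.64 of replicates 4 to 6 and below the 11.16 to 11.31 of the other 0.3 g/l arrays. Prnd (6.90) and Cd93 (7.16) lay below both sets, and so did Myh11 (8.80) and Aoc3 (7.15), while Col2a1 (10.67) lay above both and Tmtc1 (8.37) between. The endothelial list was between the sets, at 7.03, and Pecam1, at 9.59, lay closer to replicates 1 to 3. Sprr1a read 8.66, near replicates 1 to 3 and the other 0.3 g/l arrays alike, and the Notch list mean of 7.10 lay with the other 0.3 g/l arrays.

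**Figure D5:**
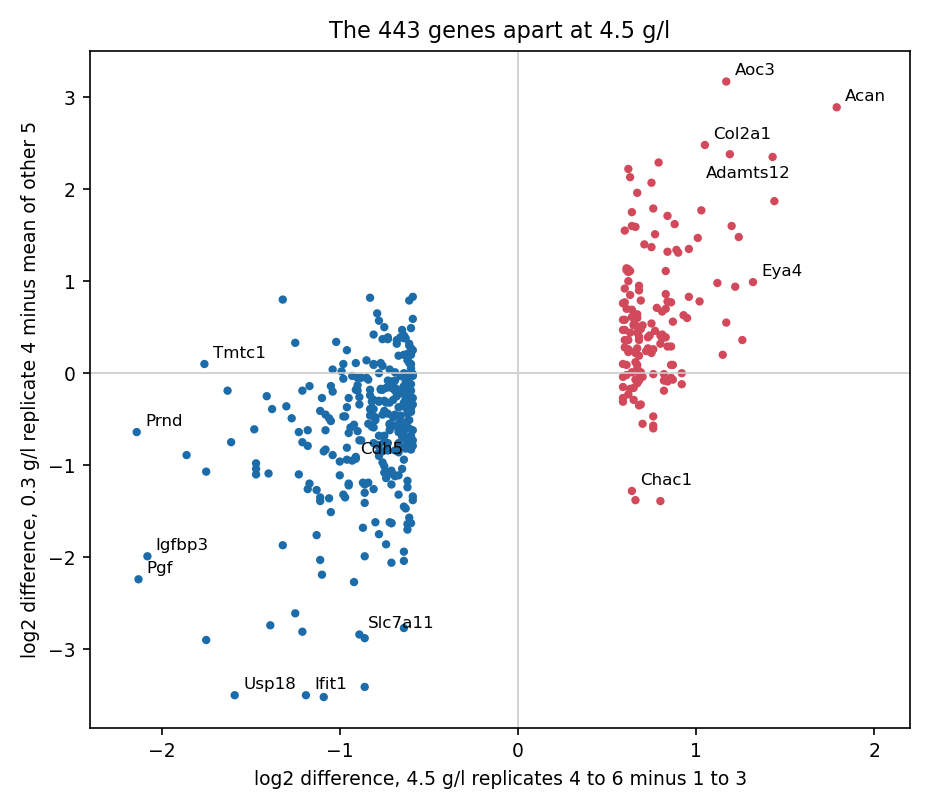
The 443 genes apart at 4.5 g/l, with the log2 difference of replicates 4 to 6 minus 1 to 3 on the x axis and the log2 difference of 0.3 g/l replicate 4 minus the mean of the other 5 arrays of 0.3 g/l on the y axis. Points in the lower left and upper right differ the same way in both; the empty band around x = 0 comes from the 1.5-fold rule that chose the genes.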

How the data were processed

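The deposited values were log2 expression values per probe set of an Affymetrix mouse gene array, made by the authors with RMA in Expression Console, per the submitters' processing notes. RMA corrects background, applies quantile normalization and summarises probes over all arrays together, so differences between arrays in overall level are largely removed. Detection calls, the genome build and software versions are not given in the sources used here. Of 41345 probe sets, 23521 had 1 gene symbol in the platform annotation, 1814 had several and 16010 were unnamed here. Each of 22180 genes was represented by 1 probe set, that of highest mean across the 12 arrays. Precision is limited by the number of arrays, 3 in each set.

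Samples were grouped by glucose label and by the replicate number in their titles. Differences and standard errors came from limma 3.58.1 in R 4.3.3, fitted to the 6 arrays of one glucose level, over all genes. The 0.3 g/l split was tested by limma, itself tried first on simulated data, with Benjamini-Hochberg adjustment at 0.05, and its p-values reflect only how far these samples varied, possibly for technical reasons. The members and the 46 gene lists (978 of 1087 entries matched a gene) were chosen with earlier results of these data known. Genes named were the 12 largest differences in each direction among apart genes with a mean of at least 6 in the higher set, up to 4 apart members of each list, and a fixed set of cell type and response genes. Small RNAs, clone-named genes and olfactory receptors stayed out of that rule; microRNA genes and the remaining names were chosen after their values were seen. Alternatives were other normalizations, folds, probe set rules, a filter on low genes, other limma settings and leaving out each replicate.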

Additional observations from a re-analysis of the deposited data

Results flagged for a closer look

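In each glucose group of 6 arrays, 14 list means and 81 genes were examined for an array whose gap to its nearest neighbour exceeded Dixon's 95% critical share of the group's range, which chance gives for about 1 in 20 groups. At 4.5 g/l there were 0 such values. Most of the 81 genes were chosen because their sets lay apart at 4.5 g/l. For such genes a single array can hardly be flagged there, so that 0 says little about outlying arrays. At 0.3 g/l there were 62 such values, and 60 of them were the library labelled replicate 4. The values below are that array's gap as a share of the range.

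Among list means it was lowest for ATF4 and amino acid response genes (0.97), the unfolded protein response (0.92), interferon-induced genes (0.84), endothelial markers (0.81), lysosome and autophagy genes (0.74) and antigen presentation (0.68). It was highest for mitosis genes (0.86), smooth muscle contractile genes (0.82), SRF and MRTF targets (0.81) and fibrillar collagens and matrix genes (0.66). The Notch list was flagged for another array, replicate 2, which was highest (0.69).

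Replicate 4 was lowest for the endothelial and vascular genes Prnd (0.69), Cd93 (0.82), Tie1 (0.85), Nos3 (0.78), Cdh5 (0.81), Erg (0.71), Hey2 (0.76) and S1pr1 (0.85), and for the adhesion genes Vcam1 (0.84) and Icam1 (0.66). It was lowest for the interferon and immune genes Usp18 (0.92), Ifit1 (0.92), Iigp1 (0.83), Bst2 (0.78), H2-K1 (0.79) and C4b (0.63). It was lowest for the secreted and surface proteins Pgf (0.88), Igfbp3 (0.88), Pi15 (0.73), Gpnmb (0.87), Kit (0.75), Ndnf (0.67), Sprr1a (0.65), Timp3 (0.95) and Bmp2 (0.75). Stress and metabolic genes on its low side were Slc7a11 (0.88), Slc7a5 (0.68), Mthfd2 (0.7), Asns (0.75), Hspa5 (0.87), Gsta4 (0.65), Bhlhe40 (0.73) and Slc2a1 (0.9). Fabp4 was lowest on replicate 2 instead (0.66).

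It was highest for the muscle genes Casq2 (0.86), Tnnt2 (0.91), Aoc3 (0.8), Myh11 (0.88), Acta2 (0.67) and Mrtfa (0.72), and for the matrix genes Acan (0.78), Col2a1 (0.75), Adamts12 (0.82) and Nid2 (0.89). It was also highest for Eya4 (0.83), Fgf7 (0.83), Ptgs2 (0.73), Wnt16 (0.74), Hoxa3 (0.85), Txnip (0.89) and Mki67 (0.85).

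The 443 apart genes were also set against all 6 arrays of 0.3 g/l, replicate 4 included. Among them 25 lay above in 4.5 g/l replicates 1 to 3 and below in replicates 4 to 6, and 2 the reverse. That difference was not tested.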

How the results depend on the processing

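The count of 443 apart genes moved most with the rule. A 1.2-fold rule gave 2764 and a 2-fold rule 75. Ranking by limma with an adjusted p at 4.5 g/l gave 683, and limma with trend and robust settings 2367; both are only a description of a split chosen on these values. Leaving out each replicate gave 443 to 563. Quantile normalization gave 481 (116 higher, 365 lower), median centring 456 (133 and 323), cyclic loess 444 (136 and 308), and leaving out the lowest 25% of genes 379. These scalings shifted the median of all genes by -0.035, -0.019 and -0.011. Of 810 alternative values for 81 named genes, 805 moved by less than the spread between replicates and no apart gene changed direction; the other 5 were Prnd (-1.05), Klhl38 (0.55) and Slc2a1 (-0.20) as the mean of their probe sets, and Xist (-0.02, from 0.05) and Acta2 (0.05) with quantile normalization. Of 140 alternative list medians 15 moved; that of DNA replication genes was -0.02 with quantile normalization. In 0.3 g/l limma gave 0 genes under every setting, with 359 to 1837 at an unadjusted p under 0.05. The apart rule at 0.3 g/l, the scalings of microRNA genes and the counts against all 6 or 5 arrays of 0.3 g/l were chosen after seeing the data. No paired analysis was possible because the 2 sets share no replicate numbers. Dim genes have the least certain differences, since signal over background was not given.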
